A study of Mus musculus with 12 samples.

Results

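The members described here are the variable gene segments of the T cell receptor alpha chain, TRAV, in spleen T cells of 4 male mice. Each TRAV entry was counted once per receptor clone and mouse, and each clone was placed in CD4 or CD8 by the deposited cell type of its cells. This gave 88 TRAV genes of 19 families in 2973 clones, of 3655 clones in all. The 88 genes are also all the TRAV genes read in the whole receptor table.

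The 2 WT mice were C57BL/6, the common inbred strain. The other 2, SLE.yaa, had the strain B6.Sle1yaa: on the same background they carry Sle1, a lupus susceptibility interval, and Yaa, a rearrangement of the Y chromosome. All 4 mice gave spleen cells enriched on magnetic beads for CD45, the surface marker of white blood cells, and captured in 10x Genomics droplets for expression and receptor libraries. The labels file the condition under a tag for chimeras without saying if bone marrow was transferred, and no age was used here. The mice of a condition are numbered in accession order. Where 4 values follow each other below, they are those of WT 1, WT 2, SLE.yaa 1 and SLE.yaa 2.

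An alpha chain is made in the thymus when 1 TRAV gene is joined to 1 TRAJ segment, with bases trimmed and added at the join. The TRAV gene encodes the first and the second complementarity-determining regions, CDR1 and CDR2, which mostly touch the MHC molecule, and the join encodes CDR3, which mostly touches the peptide. CD4 T cells read MHC class II and CD8 T cells read MHC class I. The mouse TRAV array holds stretches that were copied and then diverged, and the suffixes D and N mark genes of the copied stretches.

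The names of such copies rest on few bases, so the sequences behind the main results are given first. A V region of 270 bases, ending just before CDR3, could be read for 87 of the 88 genes from 2616 assembled receptor sequences, and 2604 of these were equal to the consensus of their gene. Of the 58 genes with at least 20 clones, 49 had another gene within 10 bases, and 3 had one that was identical over this stretch. The TRAV16 family carries the gene that passed between WT and SLE.yaa among the 19 genes tested in CD8 clones, and its 3 members are shown in the order in which they lie on the chromosome, with capitals at the 6 positions where they vary.
TRAV16D-DV11: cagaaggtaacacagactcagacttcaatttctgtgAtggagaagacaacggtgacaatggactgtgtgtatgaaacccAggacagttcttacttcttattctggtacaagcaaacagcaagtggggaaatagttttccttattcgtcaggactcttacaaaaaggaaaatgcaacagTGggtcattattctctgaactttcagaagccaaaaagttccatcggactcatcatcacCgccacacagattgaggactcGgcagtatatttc
TRAV16N: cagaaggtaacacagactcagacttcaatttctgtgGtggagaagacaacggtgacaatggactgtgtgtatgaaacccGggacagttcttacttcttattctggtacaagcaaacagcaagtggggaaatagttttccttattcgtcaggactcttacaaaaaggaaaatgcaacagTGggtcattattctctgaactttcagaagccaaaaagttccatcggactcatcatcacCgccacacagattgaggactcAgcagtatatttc
TRAV16: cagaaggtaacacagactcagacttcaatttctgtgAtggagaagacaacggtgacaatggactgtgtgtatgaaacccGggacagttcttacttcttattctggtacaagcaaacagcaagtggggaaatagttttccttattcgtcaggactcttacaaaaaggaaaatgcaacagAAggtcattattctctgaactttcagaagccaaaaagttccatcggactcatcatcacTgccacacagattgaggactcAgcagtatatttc

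Counted from 1 at the first base shown, TRAV16D-DV11 differed from TRAV16N by A37G, A80G and G258A, with the base of the first gene written first. TRAV16N differed from TRAV16 by G37A, T179A, G180A and C237T. All 62 assembled TRAV16N sequences carried the same 270 bases. In the RefSeq annotation of GRCm38.p6, TRAV16D-DV11 lies at chr14:53047287-53047821, TRAV16N at chr14:53351090-53351621 and TRAV16 at chr14:53743174-53743705. All 88 genes had a position in that annotation, in the T cell receptor alpha and delta locus.

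Families TRAV4 and TRAV9 each hold a copy that passed the test of CD4 against CD8 and a close copy that did not. Whether the copies of a pair differ from each other in this respect was not tested. TRAV4D-4 (chr14:52990889-52991389) and TRAV4-4-DV10 (chr14:53683677-53684177) differed at 8 bases. TRAV9D-3 (chr14:52920678-52921110) and TRAV9-2 (chr14:53591080-53591504) differed at 5 bases. Capitals mark the bases that differ within each pair.
TRAV4D-4: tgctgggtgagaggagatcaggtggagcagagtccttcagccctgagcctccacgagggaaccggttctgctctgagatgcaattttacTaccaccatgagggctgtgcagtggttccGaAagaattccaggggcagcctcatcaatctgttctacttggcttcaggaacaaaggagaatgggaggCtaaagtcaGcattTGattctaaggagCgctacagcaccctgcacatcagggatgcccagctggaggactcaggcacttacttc
TRAV4-4-DV10: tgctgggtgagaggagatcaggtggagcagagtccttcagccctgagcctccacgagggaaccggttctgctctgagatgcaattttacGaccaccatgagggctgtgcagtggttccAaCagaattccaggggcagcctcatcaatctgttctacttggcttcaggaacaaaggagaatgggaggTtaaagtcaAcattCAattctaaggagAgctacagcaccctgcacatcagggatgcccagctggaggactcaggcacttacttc
TRAV9D-3: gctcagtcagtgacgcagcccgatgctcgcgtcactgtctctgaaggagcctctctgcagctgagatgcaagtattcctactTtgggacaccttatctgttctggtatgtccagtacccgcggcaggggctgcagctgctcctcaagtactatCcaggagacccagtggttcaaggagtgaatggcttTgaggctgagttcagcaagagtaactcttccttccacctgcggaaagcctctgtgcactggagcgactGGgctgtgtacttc
TRAV9-2: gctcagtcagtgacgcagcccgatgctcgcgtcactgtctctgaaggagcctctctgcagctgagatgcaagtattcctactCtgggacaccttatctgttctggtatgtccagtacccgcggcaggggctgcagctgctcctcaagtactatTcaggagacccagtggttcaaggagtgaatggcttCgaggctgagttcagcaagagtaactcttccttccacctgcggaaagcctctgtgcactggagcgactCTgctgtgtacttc

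Receptors were read in 4001 cells, between 719 and 1148 a mouse, and 9 barcode sequences occurred in more than 1 mouse. CD4 clones numbered 568, 607, 436 and 311 by mouse, and CD8 clones 310, 379, 217 and 145. A further 681 clones had no CD4 or CD8 cell, and 1 had as many of each and was left out. By mouse the former were 143 of 1021, 155 of 1141, 250 of 904 and 133 of 589 clones. The clones counted thus leave out a larger part of both SLE.yaa mice than of either WT mouse. The annotation was checked against the coreceptor transcripts. Cd4 was found in 73.0% of CD4 cells with a receptor, and Cd8b1 in 88.8% and Cd8a in 83.4% of the CD8 cells, against 0.480%, 0.629% and 0.384% of B cells. Median UMIs per cell were 4295 in CD4, 5836 in CD8 and 3830 in B cells. The CD8 cells also held Cd4 in 1.58% to 14% by mouse. The tests were therefore repeated with clones placed only by cells that held their own coreceptor transcript and not the other.

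TRAV use was spread over many genes in both compartments. In CD4 the most used genes, by mean share of clones over the 4 mice, were TRAV7D-2 at 4.68% ± 2.19 (SD, n = 4), TRAV6-6 at 4.21% ± 1.19, TRAV4D-4 at 4.09% ± 0.965, TRAV6N-7 at 3.61% ± 0.664 and TRAV13D-2 at 3.29% ± 0.645. In CD8 they were TRAV12D-3 at 6.08% ± 1.61, TRAV16N at 4.45% ± 2.76, TRAV12-2 at 4.35% ± 1.57, TRAV12D-2 at 4.32% ± 2.45 and TRAV3D-3 at 4.05% ± 1.43. No gene was in the first 5 of both. Within each list the SDs of neighbours overlap, so the order inside the lists is not resolved.

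CD4 and CD8 clones of the same mice used several TRAV genes at different rates. In edgeR's quasi-likelihood test on clone counts with the mouse as a block, 7 of 58 genes passed an adjusted p of 0.05 (12.1% of those tested), 5 higher in CD8 (8.62%) and 2 higher in CD4 (3.45%). The genes higher in CD8 were TRAV9D-3, TRAV12D-3, TRAV12-2, TRAV16 and TRAV16D-DV11, and those higher in CD4 were TRAV4D-4 and TRAV7D-2. The other 30 genes had fewer than 20 clones and were not tested. Over the 58 genes the median log2 ratio of CD8 over CD4 share was -0.13, and 26 ratios were above 0.

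TRAV9D-3 was found in 4.19%, 3.43%, 1.84% and 0.690% of CD8 clones. Its shares of CD4 clones were 0.704%, 0.494%, 0.459% and 0.322%. CD8 was above CD4 in all 4 mice, although the CD8 share of SLE.yaa 2 lay just below the CD4 share of WT 1. In SLE.yaa 2 this order rests on 1 of 145 CD8 clones against 1 of 311 CD4 clones. The log2 ratio was 2.37 (SE 0.56, adjusted p = 0.00144 by edgeR).

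TRAV4D-4 went the other way. Its shares of CD4 clones were 4.58%, 2.97%, 3.67% and 5.14%, against 0.968%, 0.528%, 0.922% and 1.38% of CD8 clones. Every CD4 value was above every CD8 value, with a log2 ratio of -2.13 (SE 0.51, adjusted p = 0.00144 by edgeR). The ranges of the mice did not overlap for 6 of the 58 genes, 4 higher in CD8 (6.9%) and 2 higher in CD4 (3.45%). The other gene of the latter kind was TRAV14-1, and those of the former were TRAV12D-3, TRAV12-2, TRAV16 and TRAV19.

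TRAV12D-3 was found in 5.48%, 6.86%, 7.83% and 4.14% of CD8 clones and in 1.76%, 1.98%, 3.67% and 3.86% of CD4 clones. The log2 ratio was 1.24 (SE 0.34, adjusted p = 0.00578 by edgeR), and SLE.yaa 2 showed the smallest gap between the compartments. TRAV12-2 was in 5.16%, 5.54%, 4.61% and 2.07% of CD8 clones and 1.94%, 1.65%, 2.06% and 1.61% of CD4 clones, with a log2 ratio of 1.32 (SE 0.40, adjusted p = 0.0141). These genes belong to the TRAV12 family and differ from their nearest copies, TRAV12-3 and TRAV12D-2, at 9 and 10 bases.

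TRAV7D-2 was in 7.75%, 4.78%, 2.98% and 3.22% of CD4 clones, highest in the WT mice. Its CD8 shares were 1.29%, 1.85%, 1.84% and 3.45%. The log2 ratio was -1.30 (SE 0.40, adjusted p = 0.0141 by edgeR), but CD8 was slightly above CD4 in SLE.yaa 2. Its V region was identical to that of TRAV7-2, which was named in only 3 clones, so how clones were divided between this pair is uncertain.

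The members of the TRAV16 family all had higher fitted shares in CD8. TRAV16 was in 2.90%, 2.11%, 2.30% and 2.07% of CD8 clones and in 0.528%, 0.824%, 0.229% and 1.29% of CD4 clones, with no overlap and a log2 ratio of 1.77 (SE 0.55, adjusted p = 0.0141 by edgeR). TRAV16D-DV11 was in 2.58%, 1.85% and 2.30% of CD8 clones of the first 3 mice and in 0 of 145 of SLE.yaa 2, which allows a share of up to 2.07%. Its CD4 shares were 0.528%, 0.330%, 0.688% and 0.643%, below CD8 in 3 of 4 mice, and the log2 ratio was 1.79 (SE 0.63, adjusted p = 0.0405). TRAV16N was higher in CD8 in 3 of 4 mice, had a log2 ratio of 0.88 (SE 0.41) and did not pass (adjusted p = 0.164 by edgeR).

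**Figure D1:**
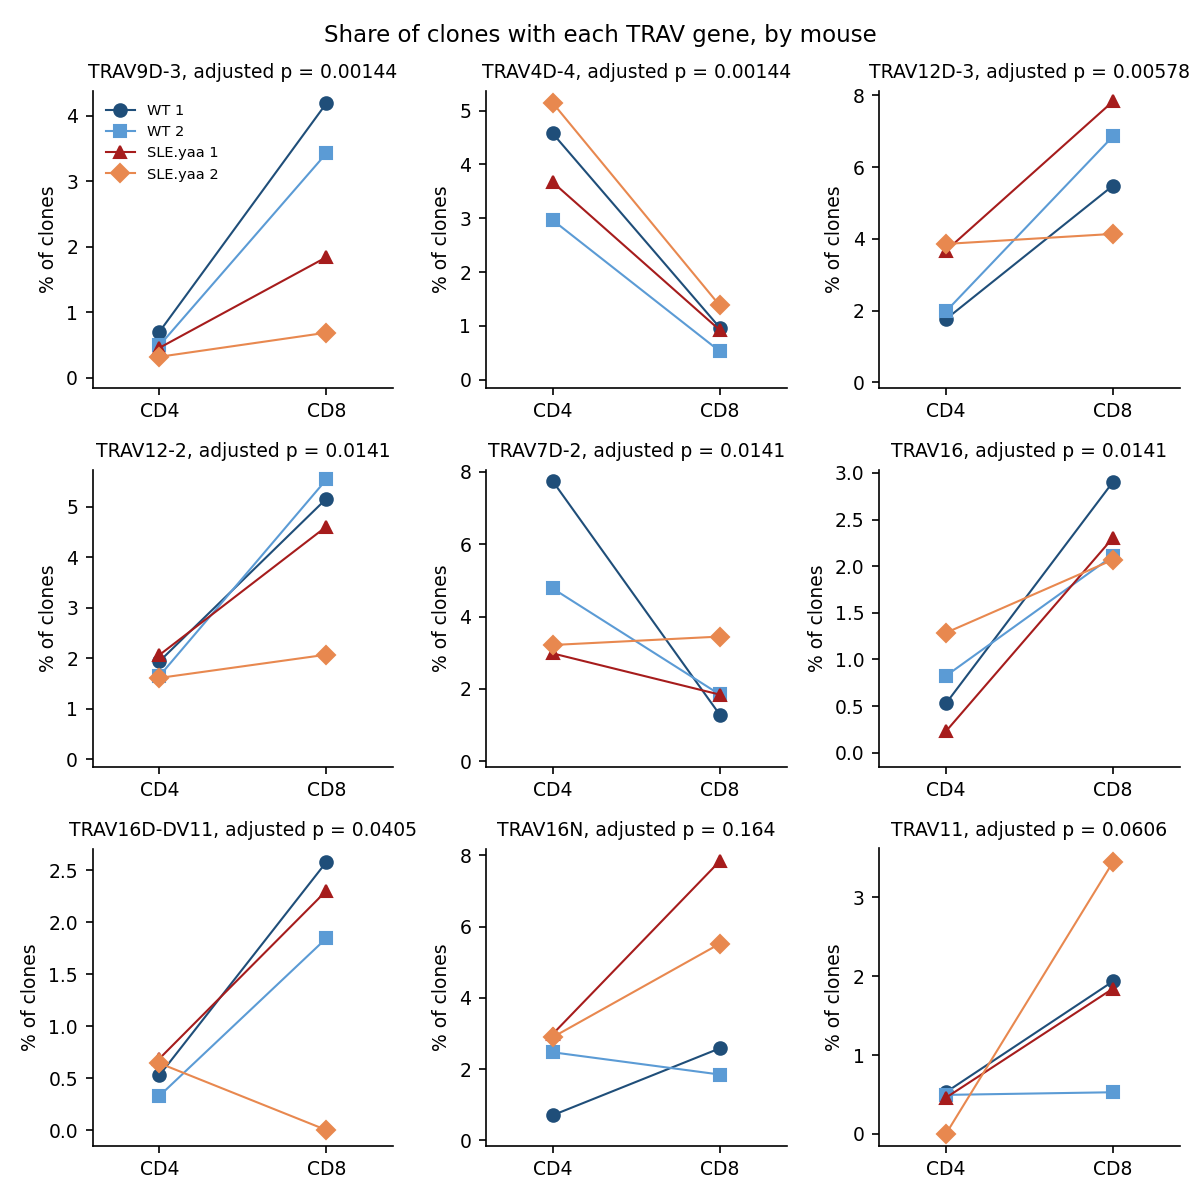
Share of CD4 and of CD8 clones (percent, y axis, a separate scale in each panel) with each of the 7 TRAV genes that passed the CD4 against CD8 test and with TRAV16N and TRAV11, which did not; each point is 1 mouse and lines join the compartments of that mouse. TRAV4D-4 is lower in CD8 than in CD4 in all 4 mice, while TRAV9D-3 is higher in all 4. For TRAV9D-3 the SLE.yaa 2 points are 1 clone each.

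The calls rested in part on 1 mouse. Without WT 1, edgeR called 0 of the 47 genes that still had 20 clones, with 7 at an unadjusted p under 0.05, while leaving out any of the other 3 mice left 5 to 7 calls. TRAV9D-3, TRAV4D-4, TRAV12D-3 and TRAV7D-2 passed in each of these 3 fits. TRAV12-2 was lost without WT 2 (adjusted p = 0.234 by edgeR) and without SLE.yaa 1 (adjusted p = 0.0697). TRAV16 was lost without SLE.yaa 1 (adjusted p = 0.109 by edgeR) and TRAV16D-DV11 without WT 2 (adjusted p = 0.307). The log2 ratios without WT 1 were 2.27 for TRAV9D-3 (adjusted p = 0.171), -2.09 for TRAV4D-4 (adjusted p = 0.0687) and -0.77 for TRAV7D-2 (adjusted p = 0.479). DESeq2 called 3 genes, TRAV9D-3, TRAV4D-4 and TRAV12D-3. With clones placed by the coreceptor transcript, all 7 genes passed again and TRAV16N joined them with a log2 ratio of 1.22 (adjusted p = 0.0304). This setting kept 1297 CD4 and 942 CD8 clones and called 9 of 51 genes in all.

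Summed by family number, which avoids the naming of close copies, 7 of 16 families passed (43.8%), 3 higher in CD8 (18.8%) and 4 higher in CD4 (25%). TRAV12, TRAV16 and TRAV11 were higher in CD8, and TRAV4, TRAV14, TRAV6 and TRAV7 in CD4. The TRAV11 call was lost with DESeq2 (adjusted p = 0.693) and without SLE.yaa 2 (adjusted p = 0.0658 by edgeR), and the markers of its cells, given below, go against the CD8 label. TRAV12 made up 15.5%, 17.7%, 22.1% and 17.9% of CD8 clones and 8.45%, 10.0%, 11.5% and 8.04% of CD4 clones, a log2 ratio of 0.91 (SE 0.16, adjusted p = 6.87e-06 by edgeR), and all 5 of its tested genes had ratios above 0, from 0.15 to 1.32. TRAV4 was the reverse, at 11.8%, 7.58%, 11% and 10.6% of CD4 clones and 3.55%, 3.43%, 5.07% and 4.83% of CD8 clones, with a log2 ratio of -1.31 (SE 0.24, adjusted p = 1.69e-05). In that family 3 of 4 tested genes had ratios below 0, the exception being TRAV4D-3 at 0.24. TRAV4-4-DV10 lay on the same side as its close copy TRAV4D-4, at -1.27 (SE 0.55, adjusted p = 0.151 by edgeR), and did not pass.

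TRAV16 as a family was in 8.06%, 5.80%, 12.4% and 7.59% of CD8 clones and 1.76%, 3.62%, 3.90% and 4.82% of CD4 clones, with a log2 ratio of 1.30 (SE 0.27, adjusted p = 7.22e-05 by edgeR). Its groups of mice did not overlap. Over the 16 families tested this held for 4 higher in CD8 (25%), TRAV16 among them, and for 3 higher in CD4 (18.8%). Smaller ratios passed for TRAV14 at -0.62 (adjusted p = 0.00581), TRAV6 at -0.38 (adjusted p = 0.0342) and TRAV7 at -0.36 (adjusted p = 0.0425). Of their tested genes 6 of 7, 6 of 7 and 5 of 9 had ratios below 0. Without WT 1 the families TRAV12 and TRAV4 passed and the count was 2. Both also passed in all 15 alternatives run, while TRAV7 passed in 6 of 15 and TRAV6 in 9 of 15.

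For TRAV9 as a family no difference was shown, with a log2 ratio of -0.15 (SE 0.20, adjusted p = 0.467). It joined genes with opposite ratios. TRAV9D-3 had the largest ratio of all 58 genes towards CD8, whereas TRAV9-1, TRAV9-2, TRAV9-4 and TRAV9N-4 had ratios of -0.99, -0.80, -0.20 and -0.26, none of which passed. TRAV9-1 and TRAV9-2 were lower in CD8 in each of the 4 mice, as were other genes that did not pass, among them TRAV14-1, TRAV14-2 and TRAV4-3. For TRAV9-4 and TRAV9N-4, CD8 was above CD4 in 1 and 2 of the 4 mice.

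**Figure D2:**
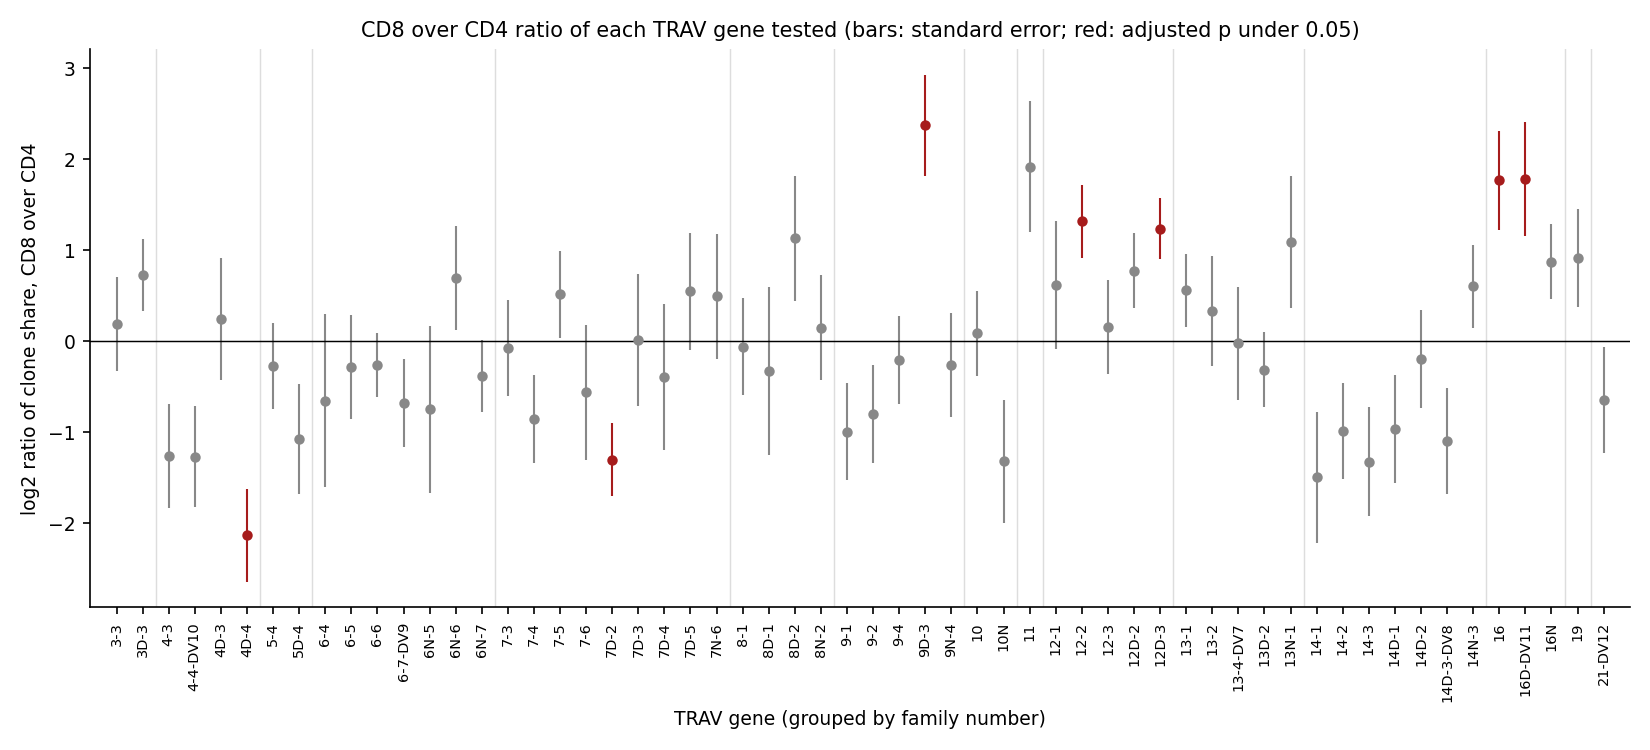
Fitted log2 ratio of the share of CD8 clones over the share of CD4 clones (y axis) for each of the 58 TRAV genes tested, grouped by family number along the x axis; bars are standard errors and red points passed an adjusted p of 0.05. TRAV12 and TRAV16 genes all lie above 0, while TRAV9 holds 1 gene far above 0 and 4 below.

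TRAV11 joined to TRAJ18 forms the invariant alpha chain of natural killer T cells, which read lipids on CD1d. TRAV11 was in 25 clones, 18 of which (72%) also held TRAJ18, against 2.37% of the other clones. The deposited annotation put 8 of the 25 in CD4 and 17 in CD8, and the shares were 0.528%, 0.494%, 0.459% and 0 of 311 clones in CD4 against 1.94%, 0.528%, 1.84% and 3.45% in CD8. The log2 ratio was 1.92 (SE 0.72, adjusted p = 0.0606 by edgeR over genes and 0.0117 over families). The 13 annotated CD8 cells with TRAV11 and TRAJ18 did not carry the transcripts of that label. Cd8a was found in 0 of the 13 and Cd8b1 in 1, whereas Klrb1c, which encodes the natural killer receptor NK1.1, was found in 9 and Zbtb16, the factor of innate-like T cells, in 2. Of the 5 annotated CD4 cells with this pair, Cd4 was found in 2 and Zbtb16 in 2. Klrb1c was found in 2.66% of all CD8 cells with a receptor. With clones placed by their coreceptor transcript, TRAV11 was left in 5 CD4 and 5 CD8 clones, too few for the test.

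CDR3 could be read for 14 of the TRAV11 clones with TRAJ18, and these held 4 sequences that differed only at base 12, in capitals below, counted from the first base of CDR3.
TRAV11-TRAJ18 CDR3, 5 clones: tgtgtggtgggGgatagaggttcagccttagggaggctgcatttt
TRAV11-TRAJ18 CDR3, 4 clones: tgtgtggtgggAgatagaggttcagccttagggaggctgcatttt
TRAV11-TRAJ18 CDR3, also 4 clones: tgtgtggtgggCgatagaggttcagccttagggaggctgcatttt
TRAV11-TRAJ18 CDR3, 1 clone: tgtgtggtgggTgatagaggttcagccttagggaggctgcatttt

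The second of these was in 3 mice. Of all 2539 alpha CDR3 sequences, these included, 43 were found in 2 or more mice, 3 in 3 mice and 0 in 4. TRAV1, which with TRAJ33 forms the chain of mucosal-associated invariant T cells, was in 11 clones, and 0 of them held TRAJ33, which allows a share of up to 27.3%.

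Among the 19 genes with at least 20 CD8 clones, TRAV16N was the only 1 to pass between the conditions in CD8. It was in 8 of 310 CD8 clones of WT 1 (2.58%, 95% exact binomial interval 1.12 to 5.02), 7 of 379 of WT 2 (1.85%, 0.746 to 3.77), 17 of 217 of SLE.yaa 1 (7.83%, 4.63 to 12.2) and 8 of 145 of SLE.yaa 2 (5.52%, 2.41 to 10.6). Both SLE.yaa values were above both WT values, although only the intervals of SLE.yaa 1 and WT 2 do not overlap. The log2 ratio of SLE.yaa over WT was 1.64 (SE 0.48, adjusted p = 0.0288 by edgeR), and 5.26% of the genes tested were called. TRAV14D-2, with 14 CD8 clones too few to be tested, was in 0.323%, 0.792%, 2.76% and 2.76% of CD8 clones. Over the 19 genes tested both SLE.yaa mice lay above both WT mice for 4 (21.1%) and below for another 4 (21.1%).

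In CD4 the TRAV16N shares were 0.704%, 2.47%, 2.98% and 2.89%. WT 2 lay close to the SLE.yaa mice and only WT 1 was low. The log2 ratio of 0.86 (SE 0.48) did not pass (adjusted p = 0.451 by edgeR). With both compartments together the shares were 1.37%, 2.23%, 4.59% and 3.73%, and the log2 ratio of 1.21 (SE 0.37) did not pass over 58 genes (adjusted p = 0.0891). The test of whether the CD8 over CD4 ratio of TRAV16N differed between the conditions gave a log2 difference of 0.77 (SE 0.74, adjusted p = 0.776), so a difference between CD4 and CD8 in this respect was not shown.

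The CD8 call for TRAV16N needed all 4 mice. It was lost when any single mouse was left out, where the lone mouse of a condition is assumed to vary like the others and 8 to 15 genes were tested, with adjusted p from 0.403 without SLE.yaa 2 to 0.848 without WT 2, and log2 ratios from 1.32 to 1.87. It was also lost when all 84 genes with at least 1 CD8 clone were tested (adjusted p = 0.179) and when only single-cell clones were counted (log2 ratio 1.54, adjusted p = 0.0627). DESeq2 called it (adjusted p = 0.00497), as did the fit on clones placed by coreceptor transcript, in which the CD8 shares were 2.41%, 1.97%, 9.14% and 6.31% (log2 ratio 1.87, adjusted p = 0.00348). Its 44 annotated CD8 cells carried the label's transcripts, with Cd8b1 in 93.2% and Cd4 in 2.27%.

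Neither of its close copies passed this test. TRAV16 had a log2 ratio of SLE.yaa over WT in CD8 of -0.16 (SE 0.66) and TRAV16D-DV11 of -0.64 (SE 0.90), with adjusted p of 0.968 and 0.916 by edgeR. The difference between the copies was not tested. Receptor clones without a CD4 or CD8 cell held TRAV16N in 4.90%, 1.94%, 2.80% and 6.02%, where the conditions overlap.

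**Figure D3:**
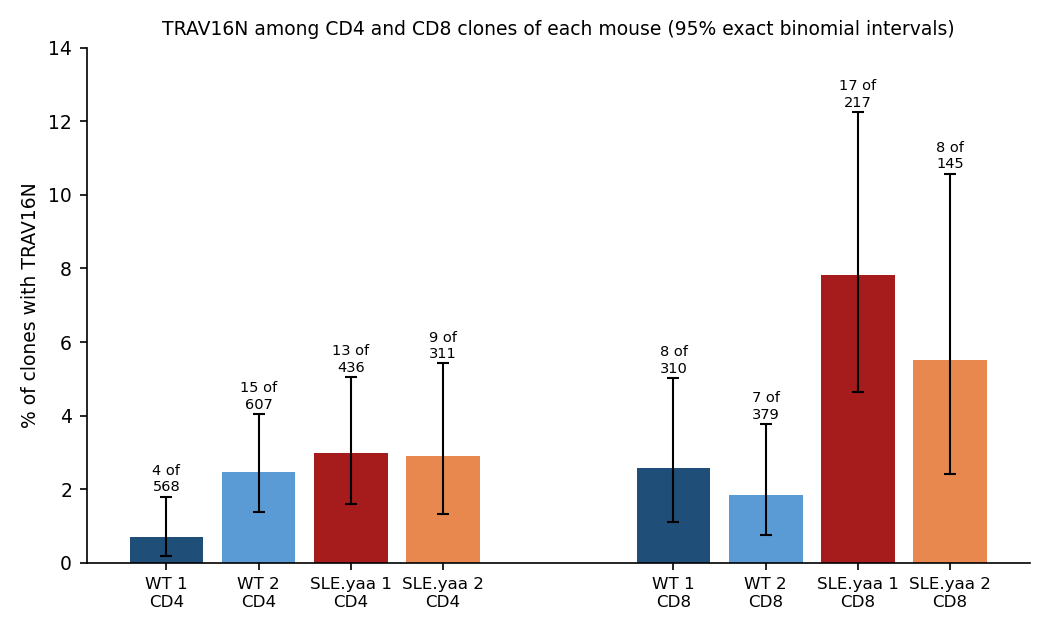
Percent of clones with TRAV16N (y axis, from 0) among the CD4 and the CD8 clones of each mouse; bars are shares, lines 95% exact binomial intervals, and the labels give clones with TRAV16N of all clones. The CD8 shares of the SLE.yaa mice, 7.83% and 5.52%, lie above those of the WT mice, 2.58% and 1.85%.

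The TRAV16N clones held many different receptors. Of 81 clones with the gene, 62 had a readable CDR3 in an assembled sequence, and these held 61 different CDR3 sequences of 36 to 54 bases. In 53 of the 62 clones CDR3 began with the same 13 bases, in capitals below. This start was extended for as long as at least 80% of the clones held it, so the high share follows from that rule. Of the 9 expanded TRAV16N clones, those with 2 or more cells, 4 are shown to let their joins be compared. The CDR3 with TRAJ15 was also found in another mouse, in a clone named TRAV16D-DV11.
SLE.yaa 1, CD4, TRAJ15, 3 cells: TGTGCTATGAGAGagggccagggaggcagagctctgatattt
SLE.yaa 1, CD8, TRAJ7, 3 cells: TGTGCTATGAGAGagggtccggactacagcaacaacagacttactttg
SLE.yaa 2, CD4, TRAJ31, 4 cells: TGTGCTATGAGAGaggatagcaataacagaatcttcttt
SLE.yaa 2, CD8, TRAJ30, 2 cells: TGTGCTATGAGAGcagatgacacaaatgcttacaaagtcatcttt

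A second TRAV gene was present in 298 of the 2973 clones (10.0%), and such a clone counts under both genes. Of the 81 TRAV16N clones, 18 held a second TRAV gene (22.2%). As such clones are listed under both genes, they make up, on average, more of a gene's clones than of all clones. The 22.2% is therefore not like for like with the 10.0%. Whether TRAV16N differs from other genes in this respect was not tested. With clones of 1 TRAV gene only, the CD8 log2 ratio of SLE.yaa over WT for TRAV16N was 2.10 (adjusted p = 0.00793 by edgeR). In the same setting the gene also passed with both compartments together, at a log2 ratio of 1.53 (adjusted p = 0.0482).

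Of the other genes none passed for SLE.yaa against WT. edgeR called 0 of 58 genes (0%) with both compartments together (4 at an unadjusted p under 0.05) and 0 of 40 (0%) in CD4 (6 at that level), and DESeq2 called 0 in both, with 1 gene each at that level. The smallest p after TRAV16N with both compartments together were those of TRAV9D-3 (log2 ratio -1.28, SE 0.42), TRAV7-6 (1.49, SE 0.60) and TRAV14D-1 (-1.23, SE 0.43), all at an adjusted p of 0.257. TRAV7-5 followed at -0.70 (adjusted p = 0.709). In CD8 TRAV12D-2 at 1.22 (adjusted p = 0.147), TRAV9D-3 at -1.42 (adjusted p = 0.184), TRAV7-5 at -1.18 (adjusted p = 0.425) and TRAV3D-3 at -0.65 (adjusted p = 0.775) came next.

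In CD4 the 5 genes of smallest p were TRAV8N-2 at a log2 ratio of 1.71 (adjusted p = 0.219), TRAV7-6 at 1.51, TRAV12D-3 at 0.99, TRAV9N-4 at -1.38 and TRAV14N-3 at -1.19, the last 4 all at an adjusted p of 0.299. The CD8 over CD4 ratio differed between the conditions for 0 of 58 genes (0%) by edgeR (4 at an unadjusted p under 0.05) and 0 by DESeq2 (2 at that level). The smallest p there was that of TRAV14D-2, with a log2 difference of 3.0 (SE 1.04, adjusted p = 0.269). TRAV7D-2 at 1.62, TRAV8N-2 at -2.48, TRAV9N-4 at 2.33 and TRAV14N-3 at 1.72 followed, each with an adjusted p of 0.504.

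Expanded clones came almost wholly from the SLE.yaa mice. They numbered 9 of 878, 6 of 986, 98 of 653 and 72 of 456 clones by mouse, so the SLE.yaa mice held 170 of 185, and 144 of the 185 were CD4. Expanded and single clones of the same mice did not differ past the threshold in any TRAV gene: edgeR called 0 of 58 genes (0%, 6 at an unadjusted p under 0.05) and DESeq2 0 (1 at that level). Within CD4 edgeR called 0 of 40 (0%, 3 at that level) and DESeq2 0 (2 at that level), and within CD8 edgeR called 0 of 19 (0%, 1 at that level) and DESeq2 0 (4 at that level).

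The genes of smallest p were TRAV7D-3, TRAV14D-2, TRAV16, TRAV6-7-DV9 and TRAV13-4-DV7. In the SLE.yaa mice 6 of 11 TRAV7D-3 clones were expanded (54.5%, 95% exact binomial interval 23.4 to 83.2), against 170 of all 1109 (15.3%, 13.3 to 17.6). The interval pools clones of 2 mice, with 4 of 5 expanded in SLE.yaa 1 and 2 of 6 in SLE.yaa 2. The log2 ratio of expanded over single share was 2.38 (SE 0.77, adjusted p = 0.273 by edgeR). It was 1.15 without SLE.yaa 1, 1.30 with TMM factors and 1.0 with DESeq2. TRAV7D-3 differs from TRAV7-3 at 2 bases, so how clones were divided between this pair is uncertain. TRAV13-4-DV7 was expanded in 5 of 16 SLE.yaa clones (31.2%, 11 to 58.7), with a log2 ratio of 1.54 (adjusted p = 0.412).

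At the low end, TRAV16 was expanded in 0 of 13 SLE.yaa clones, which allows a share of up to 23.1%, and TRAV14D-2 in 0 of 18, which allows up to 16.7%. Their adjusted p were 0.412 and 0.335 by edgeR. TRAV6-7-DV9 was expanded in 1 of 28 SLE.yaa clones (3.57%), and that clone was the largest CD8 clone, of 10 cells. TRAV16N was expanded in 9 of 47 SLE.yaa clones (19.1%, 9.15 to 33.3), 5 in SLE.yaa 1 and 4 in SLE.yaa 2, an interval that holds the share of all clones. In WT it was expanded in 0 of 34 clones, which allows up to 8.82%.

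Within CD4 the genes of smallest p were TRAV6-7-DV9 (adjusted p = 0.107 by edgeR), TRAV6-5 (0.581), TRAV13-4-DV7 (0.581), TRAV14D-2 (0.602) and TRAV14-3 (0.715). Within CD8 they were TRAV6-6, TRAV12-2, TRAV10, TRAV16 and TRAV3D-3, all at 0.613. The largest clones used different genes. A clone of 19 cells in SLE.yaa 1, 11 of them annotated CD4, joined TRAV13D-1 to TRAJ32, and a clone of 15 cells in WT 1, 13 of them annotated CD4, joined TRAV7-3 to TRAJ43. Their CDR3 sequences are given because they are the 2 largest clones. The CDR3 with TRAJ43 was also found in another mouse, in a CD4 clone named TRAV7D-3.
SLE.yaa 1, TRAV13D-1 with TRAJ32: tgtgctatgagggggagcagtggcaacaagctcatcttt
WT 1, TRAV7-3 with TRAJ43: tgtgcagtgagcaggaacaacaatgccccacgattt

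**Figure D4:**
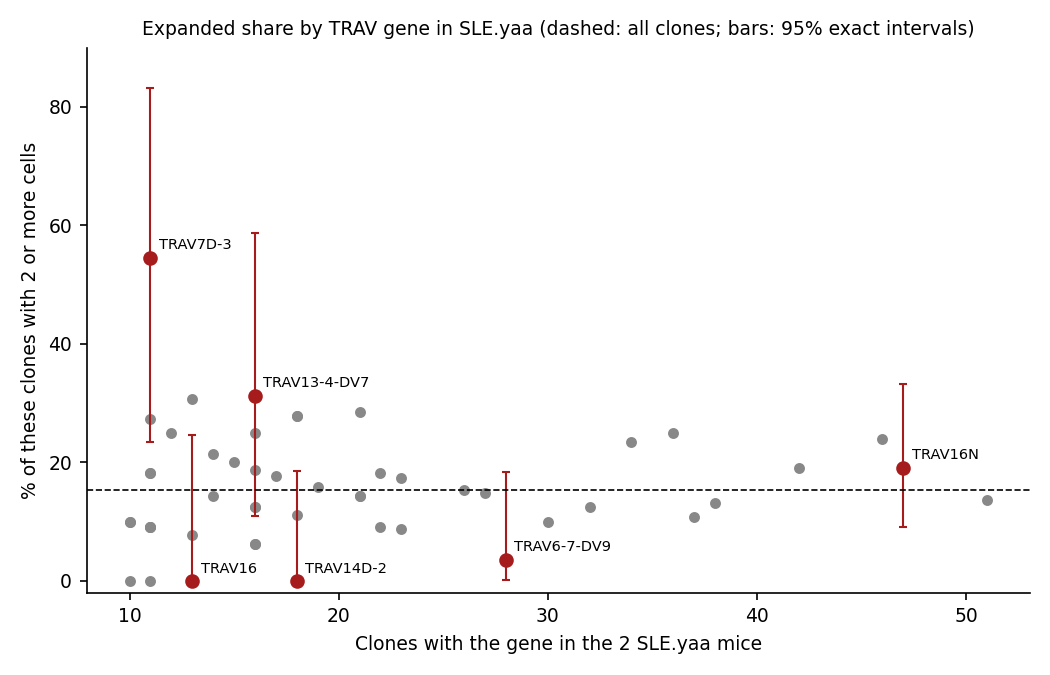
Share of clones with 2 or more cells (percent, y axis) against the number of SLE.yaa clones with the gene (x axis), for TRAV genes with at least 10 such clones; red points are named genes with 95% exact binomial intervals, and the dashed line is the share of all SLE.yaa clones, 15.3%. TRAV7D-3 lies highest at 54.5%, with an interval that starts at 23.4%, and TRAV16N lies near the line.

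No difference in the diversity of TRAV use was shown between CD4 and CD8. The number of TRAV genes expected in 100 entries was 49.8 ± 1.39 (SD, n = 4 mice) in CD4 and 49.1 ± 2.35 in CD8, a mean difference of -0.68 ± 3.28 (SD, n = 4; p = 1 in an exact two-sided sign-flip test), and CD8 was higher in 3 of 4 mice. Counted over families instead of genes, this measure was higher in CD8 in 4 of 4 mice, by 1.11 ± 0.633 (SD, n = 4; exact two-sided sign-flip p = 0.13, the smallest 4 pairs allow). The exponential of the Shannon entropy, an effective number of genes, was 55.5, 61.4, 61.4 and 56.1 in CD4 and 55.4, 59.2, 46.0 and 48.0 in CD8. CD8 was lower in 4 of 4 mice (exact two-sided sign-flip p = 0.13, the smallest 4 pairs allow). In CD8 the SLE.yaa mice lay below the WT mice, at 47.0 ± 1.46 against 57.3 ± 2.71 (SD, n = 2 each; exact two-sided permutation p = 0.33, the smallest 2 against 2 allow). The Shannon measure is not adjusted for the number of clones, which was lower in CD8 than in CD4 in every mouse and lower in SLE.yaa than in WT, and the expected number in 100 entries, which is, gave 47.9 ± 3.06 in SLE.yaa CD8 against 50.3 ± 1.10 in WT CD8 (exact permutation p = 0.667).

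The TRAJ partner of a TRAV gene varied with its place in the array. TRAV genes that lie nearest to the TRAJ cluster are joined in early rounds to the near TRAJ segments, which have high numbers, and later rounds reach outward on both sides. Across the 52 genes with at least 20 clones of 1 TRAV and 1 TRAJ, the start of the gene and the median TRAJ number of its clones had a Spearman rho of 0.82 and a Pearson r of 0.76. This is a description across genes, which are not independent and share the same 4 mice. Within mice rho was 0.88 in WT 1 (28 genes), 0.86 in WT 2 (40 genes), 0.81 in SLE.yaa 1 (19 genes) and 0.40 in SLE.yaa 2 (10 genes).

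The TRAV16 copies, alike in sequence, had different medians. TRAV16, the nearest to TRAJ, had a median TRAJ number of 48 over 31 clones, TRAV16N of 26 over 63 clones and TRAV16D-DV11 of 30 over 25 clones. TRAV12-2 had a median of 39 and TRAV12D-3 of 23, although both were used more in CD8. The median TRAJ number over all TRAV genes was 30, 31, 31 and 31 in CD4 and 30, 27, 30 and 27 in CD8, with a mean difference of -2.25 ± 2.06 (SD, n = 4; exact sign-flip p = 0.25). Mean alpha CDR3 length was 40.7 ± 0.279 bases in CD4 and 40.9 ± 0.404 in CD8 (SD, n = 4; exact sign-flip p = 0.375).

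**Figure D5:**
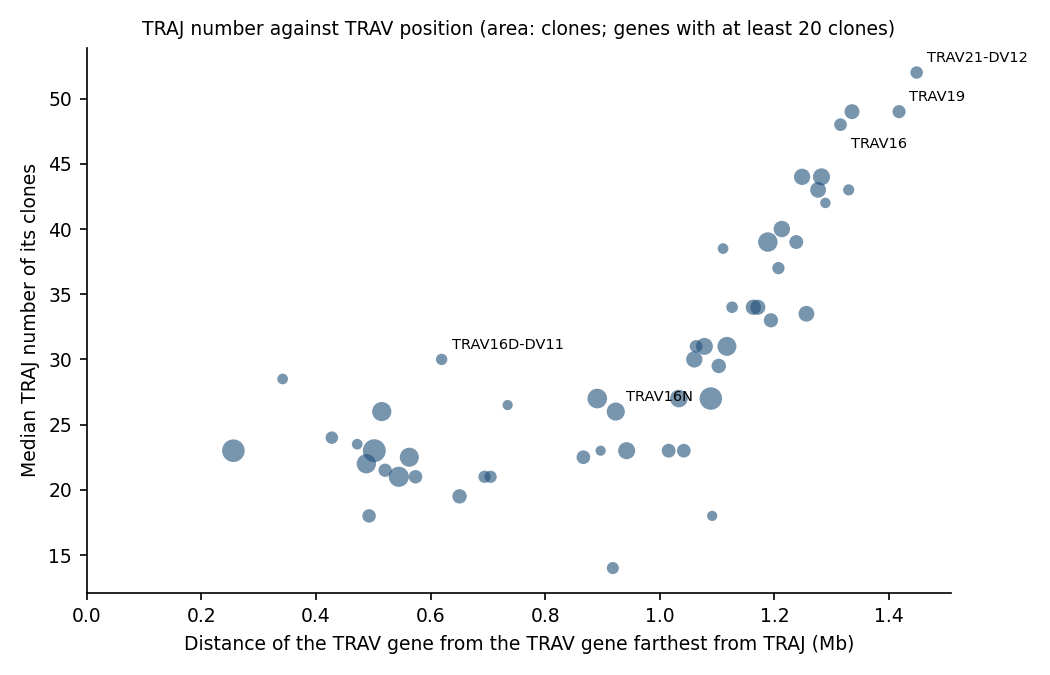
Median TRAJ number of the clones of each TRAV gene (y axis) against the distance in Mb of the gene from the TRAV gene farthest from TRAJ (x axis), for the 52 genes with at least 20 clones; point area is proportional to the number of clones. The median is between 14 and 30 for genes up to TRAV16N, and is highest, at 52, for TRAV21-DV12 at the near end.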

How the data were processed

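Each cell's TRAV, TRAJ and CDR3 fields and assembled sequences came from the deposited single-cell receptor table of 4 mice, and cell types from the deposited cell annotation, joined by barcode and mouse. Per the submitters' processing notes, Cell Ranger 5.0.0 and Seurat 4.0.0 were used with GRCm38. Doublets were not called here, and the deposited cells were used as they are. Each field of the receptor table keeps at most 2 values a cell. The deposited expression table holds the natural log of 1 plus a whole value, as made by the authors, from which marker transcripts were read, 15 of 21 markers fixed; the other 6 were not analysed here. Clone counts were computed from the deposited table, each clone once by its clonotype name within a mouse, in the compartment of most of its cells.

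Genes with at least 20 clones were tested with edgeR 4.0.16 (quasi-likelihood, dispersion with an abundance trend, clone totals as library size, Benjamini-Hochberg adjustment over the genes tested) in R 4.3.3. CD4 and CD8, and expanded and single, clones come from the same animals, so the mouse was a block. Deviations of a mouse's CD4 and CD8 shares from their means correlated at -0.146 to 0.0786 over 58 genes, so the pairing rests on the animals. DESeq2 1.42.0 was an alternative. Scripts were tested on simulated data. Intervals and limits, the latter 3 clones of the total, cover counting error only. The exact p-values compare the values of these 4 mice. Those of edgeR and DESeq2 draw on spread pooled across genes, so they do not rest on a gene's own spread between mice alone.

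Named were TRAV16N and its family, the 5 most used genes of each compartment, up to 10 genes passing a comparison or else the 5 of smallest p, TRAV11, TRAV1 and genes of families that passed. TRAV19, the TRAV9 genes other than TRAV9D-3, and the genes of the largest clones were chosen after their values were seen. The members and lists were chosen with earlier results of these data known. A planned test of Trav transcripts was not made, as those transcripts were not analysed here.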

Additional observations from a re-analysis of the deposited data

Results flagged for a closer look

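In 38 groups of 4 mice, those of the named genes and of the measures per mouse, 2 had a mouse far from the other 3 by Dixon's criterion, which chance gives in about 1 of 20 groups. SLE.yaa 2 had TRAV11 in 0 of its CD4 clones, while the other 3 mice lay between 0.459% and 0.528%, on 2 or 3 clones each. The 0 of 311 clones allows up to 0.965%, so at this depth a difference from the other mice was not detectable. WT 1 had a median TRAJ number of 30 in CD4, while the other 3 mice all had 31, a measure in whole steps.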

How the results depend on the processing

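Of the main counts and measures under each alternative, 138 values stayed within 1.5 times the reported count or within 1 SD. Beyond these bounds 13 counts were lower, 5 were higher and 1 measure moved. Many of the 138 are counts of 0 that stayed 0, and a measure within 1 SD can still have turned its sign. For CD4 against CD8, where 7 genes and 7 families passed, DESeq2 gave 3 genes and 4 families, single clones only gave 4 genes, and, as an alternative chosen after seeing the data, clones placed by coreceptor transcript gave 4 families. Leaving out 1 mouse gave 0 to 7 genes, the 0 without WT 1, and 2 to 6 families, 2 without WT 1 and 4 without SLE.yaa 1; fewer genes then reached 20 clones. Without the replicate block 8 genes and 6 families passed, and the block changed no other count of calls. For SLE.yaa against WT 1 gene, TRAV16N, passed with dispersion without a trend, with clones of 1 TRAV entry only and without WT 2, a range of 0 to 1 with a mouse left out. Within CD4 this range was also 0 to 1, the 1 without WT 2 and lower in SLE.yaa. Within CD8 the count fell from 1 to 0 with no filter, with any mouse left out and, chosen after seeing the data, with single clones only. For expanded against single clones within CD4, 1 gene, TRAV6-7-DV9, passed with TMM factors (edgeR adjusted p = 0.0468). The Shannon measure of CD8 minus CD4 was 0.755 over families against -6.40 over genes.

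The expected number of genes in 100 entries, CD8 minus CD4, also turned, from -0.68 to 0.935 without SLE.yaa 1 and 1.11 over families. Among single genes, signs turned only for genes that did not pass. For expanded against single clones TRAV16N, at 0.32 on the log2 scale, was -0.39 with TMM factors, -0.51 with DESeq2 and -0.29 with clones of 1 TRAV entry. Within CD4 it was -0.50, -0.68 and -0.63, and within CD8 -0.51 with TMM and -0.57 with DESeq2. There TRAV6-6 was -0.01 and -0.41, and TRAV3D-3 -0.68 and -0.81, with the same tools. For the difference of the CD8 over CD4 ratio between conditions TRAV16N ranged from -0.62, without WT 2, to 1.62, without WT 1. The causes were not tested. Settings for Trav transcripts were not run. Depth limits the genes: in CD8 clones of SLE.yaa 2 a count of 0 allows 2.07%.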
